A study of Mus with 15 samples.

Results

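The 10 LIM homeobox genes Lhx1, Lhx2, Lhx3, Lhx4, Lhx5, Lhx6, Lhx8, Lhx9, Isl1 and Isl2 were examined for monoubiquitination of histone H2A (the mark H2AK119ub, here H2Aub) in the mouse thalamus. They were taken by name, 10 of the 21887 protein-coding genes of the annotation. For each gene, the window was the gene body on the mm10 assembly plus 5 kb on each side. A gene was described by the peaks that reached into its window, by the number of bases of the window lying under peaks (the covered length), and by the width of its widest peak. All 10 genes had a peak in all 11 H2Aub libraries, and none was left out.

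H2Aub was profiled by ChIPmentation, in which Tn5 transposase inserts the sequencing adapters into immunoprecipitated chromatin while it is still on the beads. WT mice gave 6 of the libraries, 3 after cocaine and 3 after saline, and cKO mice gave 5, with 2 after cocaine and 3 after saline. The mice were 2 to 4 months old, and each library was made from the pooled thalami of several animals and described by the submitters as biologically independent. WT mice carried the floxed Maged1 allele (genotype label Maged1 Loxp) and served as controls, and cKO mice had lost Maged1 in cells expressing Vglut2-Cre, so that cells of the thalamus without the driver kept the gene. All mice first received 3 days of saline, then 5 days of either intraperitoneal cocaine at 20 mg/kg or further saline. Per the study's methods, the animals were hemizygous males on the C57Bl6J background. Whole thalamus mixes cell types, and fewer cells carrying the mark cannot be told apart from less of the mark per cell.

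H2Aub is deposited by Polycomb repressive complex 1, and broad domains of it typically cover developmental regulator genes that are silent in a given tissue. LIM homeobox genes encode transcription factors with a DNA-binding homeodomain and paired LIM zinc-finger domains through which they bind cofactors such as Ldb1. In the embryo they specify neuron classes in the spinal cord, forebrain and midbrain. Lhx2 and Lhx9 are known from the developing thalamus, while the other members are best known from other regions. Expression values were not analysed here, and neither the tissue label nor the activity of any member was checked against transcripts.

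On the main chromosomes the lists held between 7271 and 80713 peaks (10 peaks elsewhere, in cKO replicates 1, were left out), and their depth is unknown because read counts were not among the values used here. Replicates numbered 1 of the 2 cKO groups stood apart, with 80713 (saline) and 54653 (cocaine) peaks against 7271 to 26055 in the other 9 lists and a highest fold enrichment over input of 52.6 and 31.2 against 5.98 to 12.2. The genome length under peaks was 27.6 (saline) and 21.2 Mb (cocaine) in these 2 libraries and 4.24 to 17.2 Mb in the other 9. Of the other 9, the WT cocaine lists covered 10.4 to 17.2 Mb and the WT saline lists 5.55 to 11.1 Mb. Comparisons of the members' covered length are therefore given with and without the 2 libraries, and against this difference in list length. Shares and medians over all genes include the 2 libraries unless stated otherwise.

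Among all protein-coding genes, 6.76% had a peak in every library, against 10 of 10 LIM homeobox genes. Peaks covered 27.0 to 54.4% of the summed length of the members' windows, depending on the library, and 0.281 to 1.45% of the windows of all protein-coding genes. The median over the members of the mean covered length was 12.2 kb. It was 2.77 kb over the 1479 coding genes with a peak in every library and 0.119 kb over the 14474 with a peak in any library. The members stood between rank 21 and rank 247 of 21887 by mean covered length. Lhx2, a regulator of eye and forebrain development, was the highest of them at rank 21 (18.5 kb ± 4.09, SD, n = 11 libraries). Lhx4, known from pituitary development, stood at rank 38 with 15.3 kb ± 3.28 and Lhx6, a factor of cortical interneurons, at rank 44 with 14.6 kb ± 3.30. Lhx3, the closest relative of Lhx4 and also required for the pituitary, was the lowest at rank 247 with 7.52 kb ± 3.15.

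**Figure D1:**
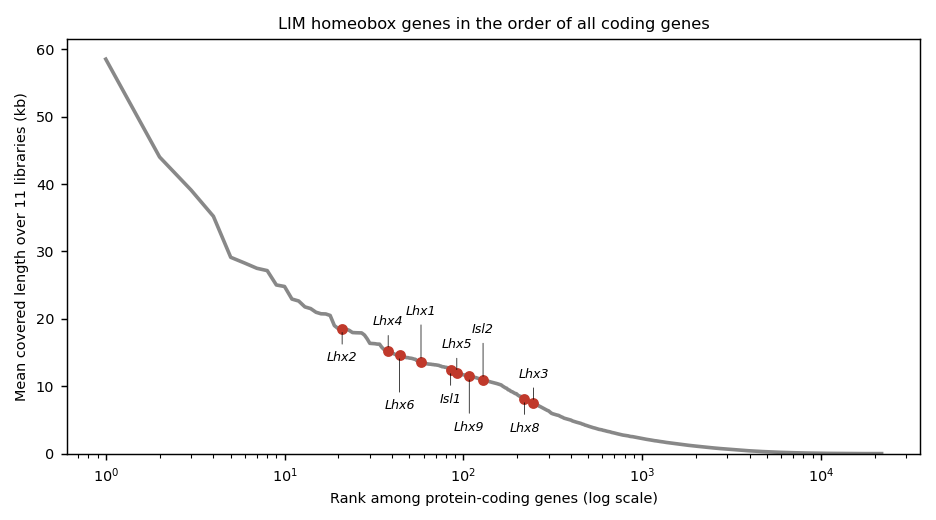
Mean length under H2Aub peaks over the 11 libraries (kb) against rank among 21887 protein-coding genes (log scale). The grey line is all genes and the red points are the 10 LIM homeobox genes, which lie between rank 21 (Lhx2) and rank 247 (Lhx3).

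Windows differed in length, from 17.6 kb at Lhx1 to 63.7 kb at Lhx4, so levels were compared between genes as the percentage of the window covered. Lhx1, which acts in head and kidney formation and in spinal interneurons, had the highest percentage, 77.8% ± 11.6 (SD over 11 libraries, range 57.6 to 92.9%). Lhx5, a factor of the developing forebrain and hippocampus, had 60.9% ± 7.08, Isl1 57.9% ± 18.2 and Isl2 57.6% ± 5.07. Isl1 and Isl2 are both factors of motor neuron identity. These 3 genes did not differ beyond their spread: Lhx5 exceeded Isl1 in 7 of 11 libraries and Isl1 exceeded Isl2 in 7 of 11. Lhx1 exceeded Lhx5 in 11 of 11 libraries, by 16.9 ± 9.16 percentage points.

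Lhx2 followed with 45.7% ± 10.1, below Isl2 in 11 of 11 libraries. Lhx6 had 42.9% ± 9.70 and was below Lhx2 in 10 of 11 libraries, by 2.86 ± 1.83 points. Lhx3 had 41.7% ± 17.4 and could not be separated from Lhx6 or from Lhx9, which had 34.1% ± 8.37. Lhx9, active in the developing gonad and thalamus, exceeded Lhx4 in 11 of 11 libraries. Lhx4 (24.0% ± 5.15) and Lhx8 (23.6% ± 4.05), the latter a factor of forebrain cholinergic neurons, did not differ beyond their spread. Lhx2 and Lhx9, the members with a known role in the thalamus, thus stood in the middle and the lower part of the order by percentage. By covered length Lhx2 was the highest member, and Lhx9 stood at rank 108 of the coding genes. The percentage also depends on window length. Lhx1, Lhx5, Isl1 and Isl2 had windows of 17.6 to 21.4 kb, and Lhx9, Lhx4 and Lhx8 windows of 33.7 to 63.7 kb. Lhx3, with a window of 18.0 kb, was an exception.

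**Figure D2:**
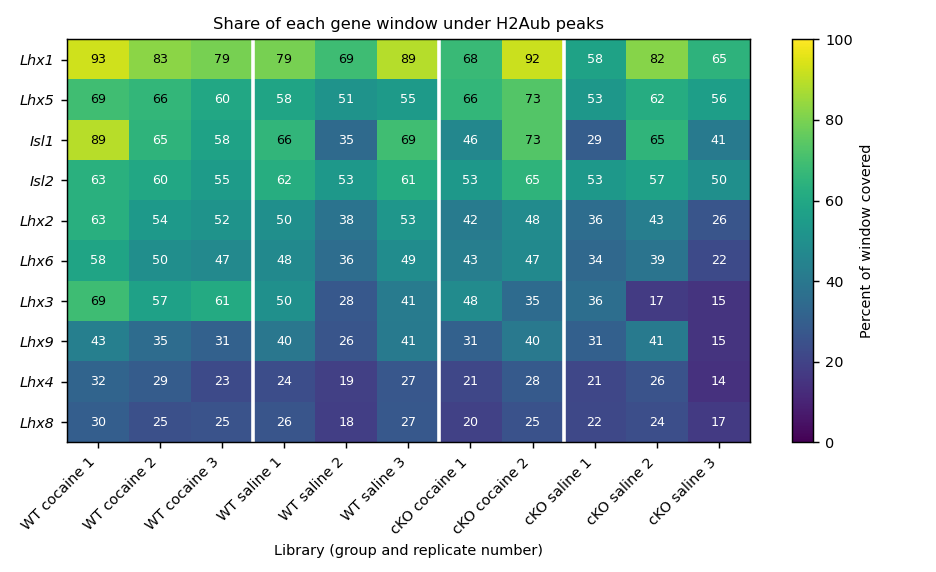
Percentage of each gene's window (body plus 5 kb each side) lying under H2Aub peaks, for 10 genes (rows, in order of their mean) and 11 libraries (columns, by group and replicate number). Lhx1 ranges from 58 to 93% and Lhx8 from 17 to 30%, while Lhx3 ranges from 15% in cKO saline replicate 3 to 69% in WT cocaine replicate 1.

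The members varied unequally between libraries. The coefficient of variation of the covered length over 11 libraries was 8.81% at Isl2, 11.6% at Lhx5 and 15.0% at Lhx1, and 31.4% at Isl1 and 41.8% at Lhx3. Across the 9 libraries other than cKO replicates 1, the covered length of each member went up with the genome length under peaks of the list (Pearson r 0.729 at Lhx5 to 0.921 at Lhx2, n = 9). Over all 11 libraries r was -0.075 at Lhx1 to 0.658 at Lhx3. These points share the depth and the peak calling of their library, and the correlations are given as a description.

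Within the windows, peaks took up a different share of body and flanks at each gene. The gene table used here gives no strand, so positions are given from the end of the gene with the lower coordinate, and the body is split at its midpoint into a lower and an upper part. At Isl2 (chr9:55538677-55547667), 97.1% ± 3.90 of the gene body was covered, against 17.9% ± 10.1 of the lower flank and 26.1% ± 8.53 of the upper flank. At Lhx1 (chr11:84517975-84525534), the covered share of the body was 90.6% ± 6.59, and the mark ran on through the upper flank (92.3% ± 13.2), where the lncRNA gene Lhx1os is annotated. At Lhx5 (chr5:120431886-120441457), the body had 87.1% ± 7.18 and the lower flank 68.4% ± 16.3, while the upper flank had 3.23% ± 5.57. At these 3 genes most of the body was covered in every library, at least 89.3% at Isl2, 82.7% at Lhx1 and 71.2% at Lhx5, and the flank with the higher coverage differed.

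Lhx4, Lhx6, Lhx8 and Lhx9 showed another layout, with coverage on the higher-coordinate side of the gene and little on the other. At Lhx9 (chr1:138825186-138848839), no library had a peak in the lower flank, and the lower part of the body was 11.9% ± 6.66 covered against 79.3% ± 19.2 for the upper part. A run of 9.06 kb at its lower end was bare in all 11 libraries. At Lhx8 (chr3:154306288-154330560), 1.82% ± 2.99 of the lower part of the body, 28.5% ± 7.16 of the upper part and 87.3% ± 15.9 of the upper flank were covered. At Lhx6 (chr2:36081950-36105992), the upper part of the body had 73.9% ± 12.1 and the lower part 28.6% ± 9.63. At Lhx4 (chr1:155698031-155751726), the domain was internal: the upper part of the body had 49.9% ± 11.4, the upper flank 3.35% ± 3.80 and the lower flank 0.991% ± 2.22.

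Lhx2 and Lhx3 leaned the other way. At Lhx2 (chr2:38339271-38369737), the lower part of the body was 70.6% ± 14.5 covered and the upper part 33.4% ± 10.9, with 48.1% ± 16.8 in the lower flank and 5.61% ± 7.24 in the upper one. At Lhx3 (chr2:26200212-26208249), the body had 66.5% ± 24.5 and the lower flank 43.5% ± 28.0, while the upper flank, where Qsox2 overlaps the window, was at 0 in all 11 libraries. Isl1 (chr13:116298270-116309688) was covered in part everywhere, with 52.9% ± 21.8 in the lower flank, 56.6% ± 15.7 in the body and 65.9% ± 27.4 in the upper flank. Peaks of at least 1 library reached 99.5% of the Isl1 window.

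**Figure D3:**
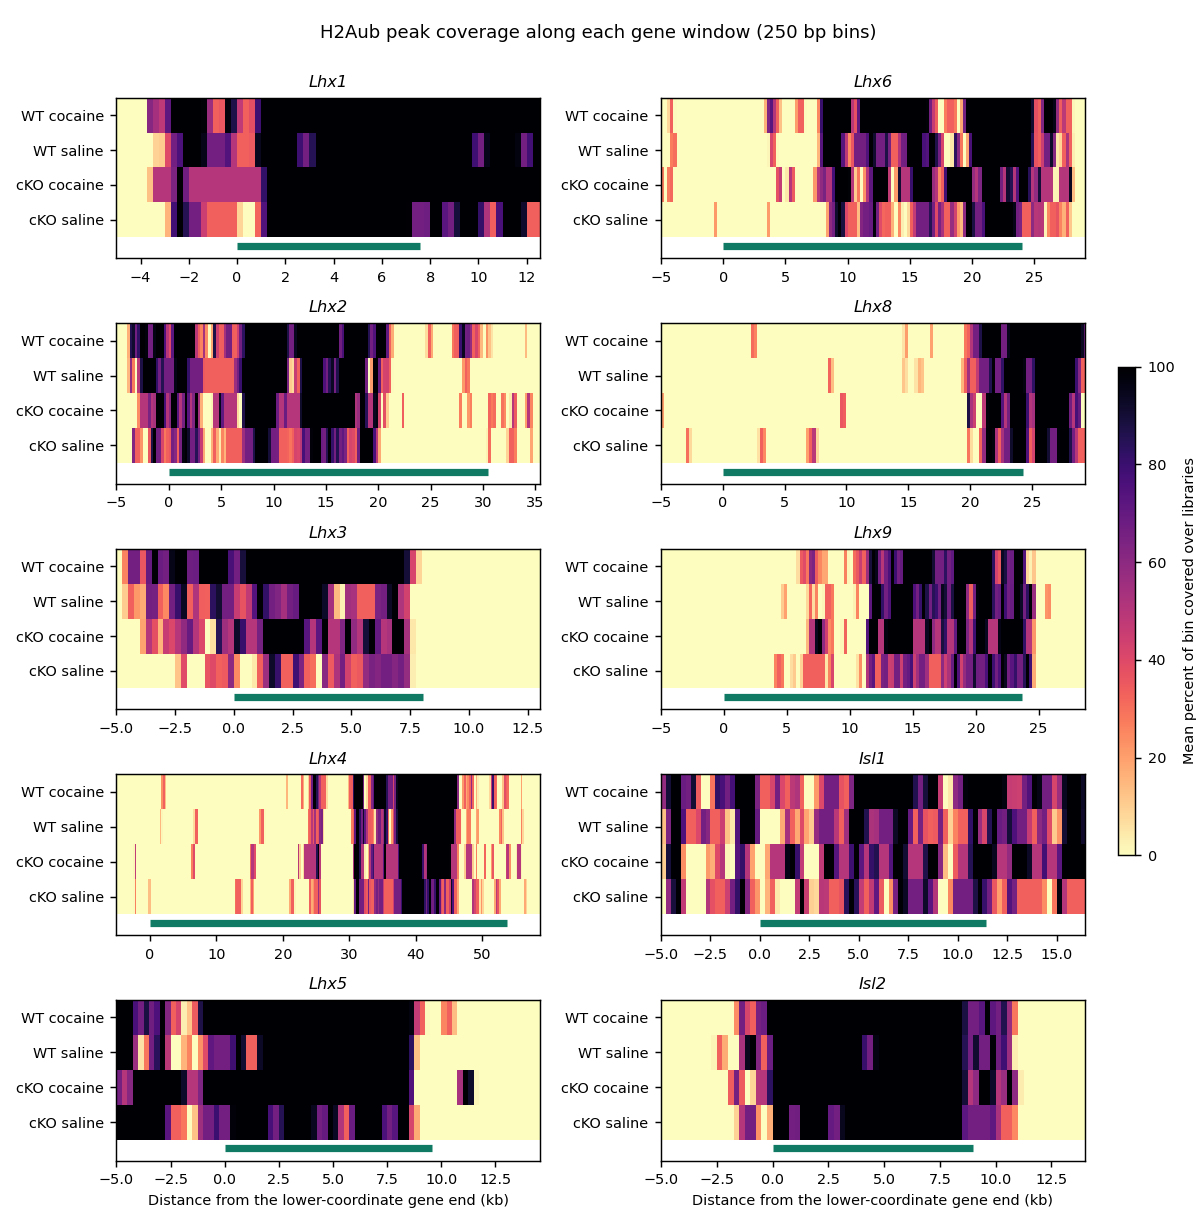
Mean percentage of each 250 bp bin lying under H2Aub peaks over the libraries of a group (colour), along each gene window (distance from the lower-coordinate gene end, kb), with 1 row per group and the gene body as a green bar. Isl2, Lhx1 and Lhx5 are covered over most of the body in every group, Lhx4, Lhx6, Lhx8 and Lhx9 on the higher-coordinate side, and Isl1 in patches.

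The bases covered in every one of the 11 libraries made up 44.5% of the Lhx1 window, 37.6% of the Isl2 window and 29.2% of the Lhx5 window. The longest such run was 4.13 kb at Lhx1 (chr11:84521087-84525220), inside the gene body. Isl2 had a run of 4.02 kb (chr9:55543202-55547217) and Lhx4 one of 3.26 kb (chr1:155735922-155739183), also inside the body. The share was 11.1% at Lhx8, 10.5% at Lhx2, 7.73% at Lhx6, 7.54% at Lhx4, 6.86% at Isl1 and 2.303% at Lhx9. Lhx3 had a single shared run of 98 bp (chr2:26202941-26203038), 0.543% of its window, although it had a peak in all 11 libraries. A peak in every library thus came with anything from a common block of several kb to almost no common base.

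The widest peaks of the members stood near the top of their lists. At Lhx1 the widest peak measured 6.46 to 17.5 kb, and in each library 99.6% or more of the list's peaks were narrower. The widest peak of Isl2 measured 4.28 to 12.0 kb and that of Lhx4 3.77 to 13.7 kb. Isl1 was the member with the narrowest widest peak, 3.72 kb on average over the libraries, and its covered length was split into 4 to 13 peaks a library, against 1 to 7 at Isl2. In cKO saline replicate 2, 84.6% of the peaks were narrower than the widest peak of Lhx3, which was the lowest share of any member in any list.

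In WT mice, the comparison of cocaine with saline asks whether the mark changed with repeated cocaine. The mean covered length was higher in cocaine at 10 of 10 members, but scaled to the genome length under peaks of each list it was lower in cocaine at 10 of 10. With the 7271 strongest peaks of each list, as many as the shortest list held, it was higher at 10 of 10. It was higher at 7 without WT saline replicate 2, at 8 without WT cocaine replicate 1 and at 8 with q at most 0.01. As called, the mean was higher in cocaine at 43.6% of the 14474 coding genes with a peak and at 95.6% of the 1479 with a peak in every library. The sum over the members was 164, 140 and 130 kb in the WT cocaine libraries and 134, 99.5 and 139 kb in the WT saline libraries. These values overlap, and the log2 difference of the sums was 0.23 ± 0.18 (SE). After scaling to list length, it was -0.56. Scaling also divides out any change shared by the whole list, such as a gain of the mark across the genome. Gene bodies already mostly covered (97.1% at Isl2 and 90.6% at Lhx1 over the 11 libraries) cannot rise in step with a longer list. The scaled direction therefore cannot decide whether the mark changed. The median log2 ratio was 0.24 over the members, 0.00 over the 14474 coding genes with a peak and 0.68 over the 1479 with a peak in every library.

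Groups did not overlap at Lhx3 and Lhx5, 2 of 10 members, both higher in cocaine except after scaling to list length, and no member was lower. Among the 14474 genes, 8.79% were higher without overlap and 0.166% lower. Among the 1479 genes with a peak in every library, 33.3% were higher without overlap. Without WT cocaine replicate 3 the members' count was 5, and the share of genes with a peak in every library was 62.1%. With 3 libraries against 3, the exact permutation test cannot go below p = 0.1.

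The covered length at Lhx3 was 12.4, 10.3 and 11.1 kb in the WT cocaine libraries and 9.07, 5.00 and 7.47 kb in the WT saline libraries. Each cocaine library lay above each saline library, with a difference of 4.08 ± 1.34 kb (SE, two-sided exact permutation p = 0.1, Benjamini-Hochberg adjusted p = 1 over 14474 genes). The widest Lhx3 peak was 12.4, 9.07 and 7.09 kb in WT cocaine and 5.27, 1.85 and 2.88 kb in WT saline. In WT saline the gene held 6 to 7 peaks a library, and in WT cocaine 1 to 3.

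At Lhx5 the covered length was 13.6, 12.9 and 11.7 kb in WT cocaine and 11.4, 10.1 and 10.7 kb in WT saline. The groups did not overlap, but the lowest cocaine library exceeded the highest saline library by little, and the difference was 2.02 ± 0.66 kb (exact permutation p = 0.1). Scaled to list length, the differences became -0.56 kb at Lhx3 and -5.62 kb at Lhx5. Isl2 and Lhx9 had nearly equal means, with differences of 0.038 ± 0.72 kb and 0.247 ± 1.99 kb. The other 6 differences lay between 0.888 kb at Lhx8 and 3.74 kb at Lhx2, each with overlapping groups.

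**Figure D4:**
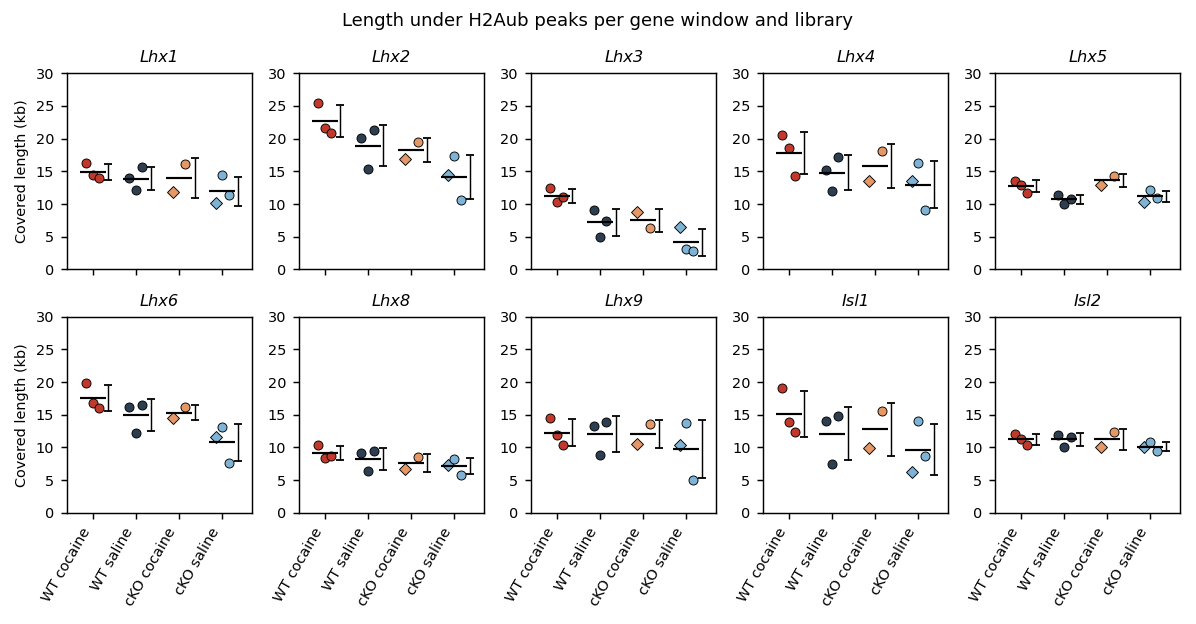
Covered length (kb) of each gene window by group; each point is a library, diamonds mark cKO replicates 1, lines are group means and bars are ±1 SD. At Lhx3 and Lhx5 the WT cocaine points lie above the WT saline points (not so after scaling to list length), and at Isl2 the 4 groups lie within 9.43 to 12.3 kb.

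The same comparison in cKO mice had 2 cocaine and 3 saline libraries. The mean covered length was higher in cocaine at 10 of 10 members, and after scaling to list length it was lower at 9 of 10, Lhx3 being the exception, and with the 7271 strongest peaks it was higher at 5 and lower at 5. It was higher at 7 without cKO cocaine replicate 2 and at 8 without cKO saline replicate 3. As called, it was higher at 55.2% of the genes with a peak and at 92.2% of those with a peak in every library. The sums were 116 and 141 kb in cKO cocaine and 101, 123 and 81.5 kb in cKO saline, a log2 difference of 0.35 ± 0.22. Without cKO replicates 1, leaving 1 cocaine and 2 saline libraries, it was 0.49. After scaling to list length it was -0.32, and with the 7271 strongest peaks of each list it was -1.05. These peaks covered 3.73 kb of the members in cKO cocaine replicate 1 and 10.1 kb in cKO saline replicate 1. They covered 136 kb in cKO cocaine replicate 2 and 121 and 81.5 kb in the other cKO saline libraries. The median log2 ratio was 0.29 over the members, 0.13 over all genes with a peak and 0.44 over those with a peak in every library.

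Groups did not overlap at 2 of 10 members, Lhx5 and Lhx6, both higher in cocaine except after scaling to list length and, at Lhx5, with the 7271 strongest peaks, and no member was lower. With the 7271 strongest peaks the Lhx6 difference was 0.953 kb and the groups overlapped at all 10 members. The background was 3.81% higher and 0.076% lower among 14474 genes, and 15.6% higher among those with a peak in every library. At Lhx5 the covered length was 12.9 and 14.3 kb in cKO cocaine and 10.4, 12.1 and 10.9 kb in cKO saline (difference 2.48 ± 0.87 kb, exact permutation p = 0.1). At Lhx6 it was 14.5 and 16.2 kb in cocaine and 11.6, 13.2 and 7.63 kb in saline (4.55 ± 1.83 kb, exact permutation p = 0.2). Scaling to list length gave -7.11 kb at Lhx5 and -3.04 kb at Lhx6. Without cKO replicates 1 the differences were 2.79 and 5.76 kb, and the count without overlap rose to 9 of 10, Lhx9 being the exception, but this sets a single cocaine library against 2 saline libraries, and the share of genes with a peak in every library rose to 78.1%. The count also went to 8 without cKO cocaine replicate 1 alone and to 7 without cKO saline replicate 2, where 31.1 and 25.1% of those genes were higher without overlap.

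At Lhx3 the covered length in cKO mice was 8.73 and 6.29 kb with cocaine and 6.54, 3.13 and 2.75 kb with saline. The groups overlapped because cKO saline replicate 1 (6.54 kb) lay above cKO cocaine replicate 2 (6.29 kb). Replicate 1 held the highest value in both groups. By widest peak, Lhx3 and Lhx5 were higher in cocaine without overlap in WT and in cKO mice, and no member was lower in either. The background for the widest peak, over the 14474 genes with a peak, was 8.95% higher and 0.214% lower in WT and 5.69% higher and 0.124% lower in cKO mice. The share among genes with a peak in every library is not given for the widest peak. For the covered length it was 33.3% higher in WT and 15.6% higher in cKO mice. The widest peak was not set against list length. The widest Lhx3 peak measured 3.89 and 2.83 kb in cKO cocaine and 1.93, 0.914 and 1.57 kb in cKO saline.

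The difference of the cocaine effects between genotypes was tested for each gene by an exact permutation of the treatment labels within genotype, which can reach p = 0.005. The permutation is exact where cocaine has no effect in either genotype. An effect shared by both genotypes can widen the permuted differences. No member had an unadjusted p under 0.05 (smallest p = 0.435, at Isl2, exact permutation), where 0.173% of the 14474 genes did, and no gene passed after Benjamini-Hochberg adjustment. Over the members' sum, the cKO effect minus the WT effect was 0.11 on the log2 scale, and 0.26 without cKO replicates 1. It was -0.035 without cKO saline replicate 3 and -0.027 without cKO cocaine replicate 2, so that its sign rests on single libraries. A p that misses the threshold does not show that the effects were alike.

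Between genotypes under saline, the mean covered length was lower in cKO at 9 of 10 members, with and without scaling to list length, and higher at Lhx5, which with the 7271 strongest peaks was lower too. As called, the mean was higher in cKO at 78.9% of the genes with a peak and at 53.5% of those with a peak in every library. These shares, and the medians over all genes below, include cKO saline replicate 1 and are not given without it. Its peaks covered 1.45% of the windows of coding genes. The value was 0.470 and 0.281% in the other cKO saline libraries and 0.370 to 0.669% in WT saline. The log2 difference of the sums was -0.29 ± 0.23, with overlapping values, and -0.29 without cKO replicates 1. Without cKO saline replicate 3, the library with the lowest sum of all, it was -0.14, and 7 members were lower and 3 higher. After scaling to list length it was -0.55, and with the 7271 strongest peaks -1.34. In cKO saline replicate 1 the scaled sum was 46.3 kb, and the strongest peaks covered 10.1 kb. In the other cKO saline libraries the scaled sums were 204 and 244 kb, and the strongest peaks covered 121 and 81.5 kb. The WT saline ranges were 153 to 227 kb and 97.3 to 137 kb. Neither setting was run without cKO saline replicate 1. No member had groups that did not overlap, in either direction, against backgrounds of 0.497% higher and 0.56% lower. The median log2 ratio was -0.26 over the members, against 0.77 over all genes with a peak, most of which are sparsely covered, and 0.05 over those with a peak in every library. Leaving out WT saline replicate 2, the library with the lowest sum of its group, brought the count of members lower without overlap to 6, and leaving out cKO saline replicate 2 brought it to 4. The share lower without overlap was then 2.07 and 1.59% of the 14474 genes, and 12.2 and 12.1% of those with a peak in every library.

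Under cocaine, the mean was again lower in cKO at 9 of 10 members and higher at Lhx5, in the covered length as called and after scaling to list length, and lower at 10 of 10 with the 7271 strongest peaks. Without cKO replicates 1, which leaves 1 cKO cocaine library, it was higher in cKO at 6 members and lower at 4, namely Lhx2, Lhx3, Lhx6 and Lhx8. As called, it was higher in cKO at 61.0% of the genes with a peak and at 36.2% of those with a peak in every library. These shares include cKO cocaine replicate 1, whose peaks covered 1.22% of the windows of coding genes. The value was 0.663% in cKO cocaine replicate 2 and 0.647 to 0.986% in WT cocaine. The log2 difference of the sums was -0.18 ± 0.17, and -0.03 without cKO replicates 1. Without WT cocaine replicate 1 it was -0.08, with 7 members lower and 3 higher. After scaling to list length it was -0.32 with all libraries. The scaled sum was 69.03 kb in cKO cocaine replicate 1. In cKO cocaine replicate 2 it was 161.3 kb, above the highest WT cocaine value of 158.6 kb. Neither scaling nor equal peak numbers was run without cKO cocaine replicate 1. As called, groups did not overlap at Lhx2 and Lhx3, both lower in cKO, and no member was higher. After scaling to list length the groups overlapped at Lhx2 (-4.61 kb). The background was 2.68% lower and 5.44% higher among 14474 genes, and 12.8% lower among genes with a peak in every library. At Lhx2 the covered length was 16.9 and 19.5 kb in cKO cocaine and 25.5, 21.7 and 20.9 kb in WT cocaine (difference -4.46 ± 1.93 kb, exact permutation p = 0.2). At Lhx3 the difference was -3.75 ± 1.37 kb (exact permutation p = 0.1, Benjamini-Hochberg adjusted p = 0.827). Without cKO replicates 1 these were -3.16 and -4.97 kb.

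The count of members lower in cKO under cocaine was 4 without WT cocaine replicate 3 and 8 without cKO cocaine replicate 2, which leaves cKO cocaine replicate 1 alone. The same share among genes with a peak in every library was 32.0 and 28.1%. Without cKO cocaine replicate 1, 2 members were higher without overlap, and 7.57% of those genes. The cocaine comparison and the genotype comparisons share libraries, so their values are not independent of each other. Across all 14474 genes and the 4 comparisons, no gene had an unadjusted exact permutation p under 0.05, which groups of this size cannot reach.

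The 2 libraries that stood apart also differed at the members in the strength of single peaks. In the other 9 libraries the highest fold enrichment at a member was 3.58 to 6.29. In cKO replicates 1, 18 peaks at 9 of the 10 members, Lhx1 being the exception, lay above 6.29, and 10 of them were inside a gene body. At Lhx2 a peak across the lower end of the gene (reaching 0.71 kb into it in cKO saline replicate 1) had a fold enrichment of 14.2 in cKO saline and 9.18 in cKO cocaine, and other libraries had weaker peaks there, 8 of 9 under the former peak and 9 of 9 under the latter, which was wider. At Lhx3 a peak within the body reached 12.0 in cKO saline replicate 1, and at Lhx8 peaks near the upper end reached 10.98 and 9.67.

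Lhx4 had the highest value in cKO cocaine replicate 1, 15.4, and reached 14.1 in cKO saline replicate 1, just below Lhx2. These came from 1 narrow site of 241 and 204 bp outside the gene (chr1:155695774-155696014 in the former), 2.02 to 2.26 kb from its lower end, where none of the other 9 libraries had a peak. Ranked by q within each list, the 7271 strongest peaks covered 3.73 kb of 3 members in cKO cocaine replicate 1 and 10.1 kb of 4 members in cKO saline replicate 1. In the other 9 libraries they covered 81.5 to 158 kb and reached all 10 members. The members' share of the length under peaks was 0.545 and 0.365% in these libraries and 0.936 to 1.92% in the others. Whether the cause lay in the animals, the chromatin or the libraries was not tested.

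**Figure D5:**
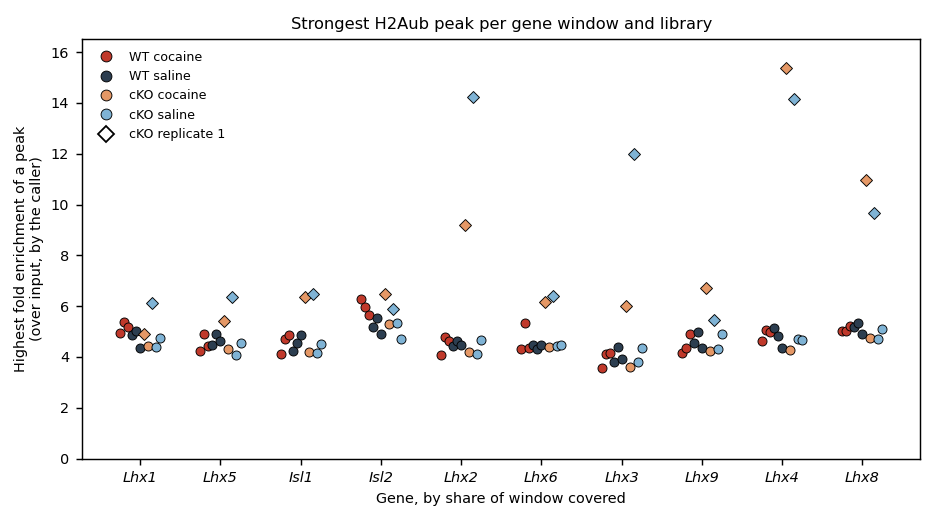
Highest fold enrichment over input of any peak in each gene window, by library; colours are groups and diamonds mark cKO replicates 1. The other 9 libraries lie between 3.58 and 6.29 at all genes, and the diamonds reach 15.4 at Lhx4, 14.2 at Lhx2 and 12.0 at Lhx3.

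The study defined H2Aub-positive genes through elements shared by replicates. Here an element was a merged region with bases covered in at least 2 libraries of a group, and a gene counted as positive where an element lay within 5 kb outside or 2 kb inside either of its ends. All 10 members were positive in WT cocaine and in cKO saline. In each of the other 2 groups 9 were, the exception in both being Lhx4, whose domain lies inside the gene. In cKO cocaine this needed both libraries and elsewhere 2 of 3, so the rule was stricter there. Of all protein-coding genes, 15.4 and 10.8% were positive in WT mice after cocaine and after saline, and 10.7 and 9.33% in cKO mice. Lhx4, Lhx6, Lhx8 and Lhx9 had no element at the lower end in any group.

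The 2 LIM homeodomain relatives that are not members, Lmx1a and Lmx1b, regulators of midbrain dopaminergic and serotonergic neurons, also had peaks in 11 of 11 libraries. Their covered lengths were 7.92 kb ± 1.92 and 22.9 kb ± 4.51 (SD, n = 11), and the groups overlapped in all 4 comparisons. Genes for LIM-only proteins and for cofactors, the Ldb proteins that bind LIM domains and the Ssbp proteins that bind Ldb, were covered less. Of Ldb1, Ldb2, Lmo1 to Lmo4, Ssbp2 to Ssbp4 and Rlim, 10 genes, 1 had a peak in every library, Lmo1 with 2.42 kb ± 1.29, and 9 had a peak in any. Ldb1, the main bridging cofactor of the family, had a peak in the 2 cKO replicates 1 and in none of the other 9 libraries. Rlim, a ubiquitin ligase acting on LIM cofactors, had none in any library.

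Ldb2 had peaks in 10 libraries with a mean of 1.17 kb ± 1.14, Ssbp3 in 9 with 1.58 kb ± 1.83, Lmo2 in 9 with 0.942 kb ± 1.05 and Ssbp4 in 8 with 1.15 kb ± 1.50. Lmo3 (6 libraries), Lmo4 (5) and Ssbp2 (3) had means of 0.302 to 0.335 kb. Much of this came from cKO replicates 1: over the other 9 libraries the means were 0.747 kb at Ldb2, 0.808 kb at Ssbp3, 0.519 kb at Ssbp4 and 0.025 to 0.110 kb at Lmo3, Lmo4 and Ssbp2. None of the 10 had groups that did not overlap in any of the 4 comparisons. For comparison, 8 of the 9 Pax genes, another family of developmental regulators, had a peak in every library, with a median of the mean covered lengths of 17.9 kb. Of 10 genes known from thalamic identity and thalamic neurons, 3 did, with a median of 1.28 kb. Over the 9 libraries other than cKO replicates 1, the medians were 17.7 kb for the Pax genes, 0.554 kb for the thalamic genes, 0.314 kb for the cofactor and LIM-only genes and 12.7 kb for the members.

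The coding genes whose covered length followed the members' sum most closely were taken from the 1469 others with a peak in every library. On the log2 scale over the 11 libraries, the Pearson correlation was 0.977 for Six2, 0.974 for Atoh8, 0.969 for Nkx2-1, 0.964 for Foxa1 and 0.962 for Msx2. The median over the 1469 genes was 0.532. These values share the depth and the calling of each library and describe the likeness of the patterns.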

How the data were processed

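H2Aub ChIPmentation libraries of thalamus were trimmed (Cutadapt), mapped to mm10 (Bowtie2 2.3.4.1) and called for broad peaks (MACS2 2.1.1.20160309.3) against total input by the authors, 1 list per library. The deposited lists give each peak's start and end, a score derived from the q-value, the fold enrichment over input (a linear ratio), and −log10 p and −log10 q. Per the file values, q reached 0.0997. Read counts were not used here, so depth is unknown, values carry no counting interval, and covered length was not corrected for depth except in the alternative that scales to list length. The 4 input libraries were not analysed here.

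Overlapping peaks were merged within a list, and bases under peaks were summed in each gene window (RefSeq gene table of GRCm38.p6, which has the coordinates of mm10) with Python 3.11.15, numpy 2.4.6 and pandas 2.3.3. Groups came from the sample labels. Groups did not overlap where the lowest value of one exceeded the highest of the other. Means were compared by two-sided exact permutation tests, with Benjamini-Hochberg adjustment over the 14474 coding genes with a peak, and the code was tested on simulated data. The p-values measure the spread between pooled samples. Standard errors are those of a difference of means with unequal variances.

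Named were all 10 members, the LIM relatives and cofactors, and the 5 genes most like the members' sum. Pax and thalamic genes were given by counts. The members and lists were chosen with earlier results of these data known. Alternatives were limits on q, equal numbers of peaks, other flanks, scaling to list length, leaving out bases of other coding genes, leaving out libraries, and a replicate block. No sequence was available to print.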

Additional observations from a re-analysis of the deposited data

How the results depend on the processing

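The log2 differences of the members' sums kept their sign in WT cocaine against saline, cKO cocaine against saline, and cKO against WT under saline and under cocaine when each library was left out (0.08 to 0.32, 0.20 to 0.49, -0.44 to -0.14 and -0.32 to -0.03). Scaling to list length turned the first pair to -0.56 and -0.32 and moved the genotype difference under saline to -0.55 and under cocaine to -0.32. These scaled genotype differences include cKO replicates 1, with scaled sums of 46.3 kb (saline) and 69.03 kb (cocaine). The other cKO libraries had 204 and 244 kb under saline (WT 153 to 227 kb). Under cocaine the other had 161.3 kb (WT at most 158.6 kb). Scaling was not run without cKO replicates 1, so these 2 signs cannot be separated from those libraries. With equal numbers of peaks the last 3 of the 4 comparisons became -1.05, -1.34 and -2.60. The difference of the cocaine effects became -1.26, and 3 members had a peak in every library instead of 10. With q at most 0.01 the cKO cocaine difference was 0.63 and the genotype difference under saline -0.53. The difference of effects ranged from -0.035 to 0.27 over left-out libraries.

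Counts of members without overlap also moved. Apart from the values as called, shares over all genes were computed for left-out libraries only. The counts under the other settings therefore have no background. Higher in WT cocaine: 0 after scaling (3 lower) and 2 to 5 over left-out libraries. Higher in cKO cocaine: 0 after scaling and 0 with equal peak numbers, 9 without cKO replicates 1, and 2 to 8 over left-out libraries. Lower in cKO under cocaine, where 2 were lower as called: 1 with q at most 0.01, 1 with 10 kb flanks, 1 after scaling, 4 in the gene body, and 2 to 8 over left-out libraries. Higher in cKO under cocaine: 2 without cKO replicates 1 and 0 to 2 over left-out libraries. Lower in cKO under saline: 1 each with q at most 0.01, equal peak numbers, the gene body, scaling and without cKO replicates 1, and 0 to 6 over left-out libraries. Where leaving out a library left 1 in a group, that library stands for its group. At single genes, scaling gave -0.56 kb at Lhx3 and -5.62 kb at Lhx5 in WT and -7.11 kb at Lhx5 and -3.04 kb at Lhx6 in cKO mice, and equal peak numbers gave -0.86 kb at Lhx5 in cKO mice. Of 714 values for gene differences that overlapped, 57 changed sign. Joining peaks across gaps of up to 1 kb moved the widest peak of 6 members by more than its SD.

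Pairing libraries by their replicate number (replicate block) gave -0.035 for the difference of effects and, with every pair moving one way, 7 members higher in cKO cocaine, 4 lower in cKO under cocaine and 1 lower in cKO under saline. The share of all genes moving that way was not computed, so these counts have no background. Same-numbered libraries did not deviate together in every pair (r -0.19 to 0.61), so the numbers were not taken to pair the samples. The lists give peaks but no reads, and depth and list length cannot be told apart here.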
